A study of Mus musculus with 17 samples.

Results

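The genes described here encode the constant parts of mouse antibodies and the J chain: the heavy chain constant genes Igha, Ighm, Ighg1, Ighg2b, Ighg2c and Ighg3, the light chain constant genes Igkc, Iglc1 and Iglc2, and Jchain. They were chosen by name, and 9 of the 10 names were found in a table of 43346 genes. Iglc1 had no row and is not analysed here, and Jchain was matched by its gene identifier because the table lists it under an older symbol, Igj. RNA was sequenced in 17 mouse bile duct samples, in work on extrahepatic cholangiocarcinoma, which arises in the ducts that drain the liver. All 17 samples carry the same label, and strain, genotype, treatment, age and the number of animals are not stated in it. The table names its 17 libraries by 6 codes and a running number, with 3 libraries in each of 5 codes and 2 in R63494. What the codes stand for is not stated, so libraries of a code are set side by side as a description of structure and not as conditions. Whether libraries of a code came from separate animals is not stated either. Each p-value below therefore takes libraries as its units and speaks for these libraries only, not for animals.

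An antibody pairs heavy chains with light chains, and the heavy chain constant gene sets the class: Igha gives IgA, Ighm gives IgM and the Ighg genes give the IgG subclasses. B cells start with Ighm and Ighd and can switch to a class encoded further along the locus, and plasma cells, the secreting stage, make most of the antibody RNA of a tissue. In bile ducts and other mucosal surfaces the characteristic class is IgA, which J chain links into dimers and which the epithelial receptor encoded by Pigr carries into the lumen. Mice use kappa light chains (Igkc) far more than lambda chains.

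All heavy chain genes of the table lie on the minus strand of chromosome 12 of mm10. In the direction of transcription they run from Ighm (chr12:113418558-113422730) through Ighd, Ighg3 (chr12:113359575-113361232), Ighg1 (chr12:113325240-113330523), Ighg2b (chr12:113302965-113307933), Ighg2c (chr12:113285325-113288932) and Ighe to Igha (chr12:113254830-113260236). Igkc lies on chromosome 6 (chr6:70726435-70726757), Iglc2 on chromosome 16 (chr16:19198401-19200351) and Jchain on chromosome 5 (chr5:88520512-88527891). J chain attaches to a cysteine that is next to last in the secreted tails of IgA and IgM and is missing from the IgG tails, so the ends of these coding sequences are shown. Each line gives the last 60 coding bases of the secreted form, stop codon included, from GENCODE M21 on mm10, minus strand, 5′ to 3′, with that cysteine codon in capitals. They come from chr12:113258768-113258827 for Igha, chr12:113420867-113420926 for Ighm and chr12:113287389-113287448 for Ighg2c, and the ends of Ighg1, Ighg2b and Ighg3 likewise had no cysteine codon next to last.
Igha: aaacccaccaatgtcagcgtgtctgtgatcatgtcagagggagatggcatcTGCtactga
Ighm: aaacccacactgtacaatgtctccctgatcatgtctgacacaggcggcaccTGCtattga
Ighg2c: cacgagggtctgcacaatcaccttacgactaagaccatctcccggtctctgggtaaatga

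The lambda genes are shown because Iglc2 was the only lambda constant gene in the table and has a close copy, Iglc3. The lines give the last 120 coding bases of Iglc2 (chr16:19198536-19198655) and Iglc3 (chr16:19065365-19065484), both on the minus strand, with bases of Iglc3 that differ from Iglc2 in capitals. Over 317 coding bases the genes differed at 11 positions (96.5% identical), and 7.65% of the 50-base stretches in Iglc2 transcripts also occurred in Iglc3. Reads from such stretches could be counted for Iglc2 or dropped, and how they were handled is not stated, so Iglc2 values are uncertain to that extent. Among the heavy chain genes the most shared pair was Ighg2b and Ighg2c, where 5.49% of the 50-base stretches of Ighg2c occurred in Ighg2b and 2.66% of those of Ighg2b in Ighg2c.
Iglc2: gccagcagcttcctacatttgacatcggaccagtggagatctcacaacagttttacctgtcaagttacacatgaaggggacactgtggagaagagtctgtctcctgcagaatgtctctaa
Iglc3: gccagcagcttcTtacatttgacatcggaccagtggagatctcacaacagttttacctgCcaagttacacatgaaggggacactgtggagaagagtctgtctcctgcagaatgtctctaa

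Library totals were 16400556 to 24152314 counts, with a median of 17886041. Cholangiocyte marker genes (Krt19, Krt7, Krt8, Krt18, Epcam, Sox9) were counted in every library, at a summed 4631 to 7441 CPM (counts scaled to library size with TMM factors, the scale used between libraries). The 3 libraries of R62850 stood apart by pancreatic acinar enzyme genes, whose 11 genes took 0.601%, 2.40% and 11.6% of all counts there and at most 0.0152% in any other library. Each share, ratio and member that passed its test below, and each count over a gene list, is followed by the value without these libraries. Heat shock genes (Hspa1a, Hspa1b, Dnajb1, Hsph1), which respond to stress and handling, summed to 2635 and 2678 CPM in R63494, 1145 to 1251 CPM in R62850 and 1255 CPM in R63500_2, and to 144 to 485 CPM in the other 11 libraries. Fibroblast collagen and matrix genes summed to 2485 and 2763 CPM in R63494 and to 9096 to 11094 CPM in R62848 and R63500, with 4078 to 6043 CPM in the other codes. The part of these differences in the results below was not tested.

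Igha among the heavy chain genes and Igkc among the light chain genes of the table took most of the counts in every library. Which heavy chain was paired with which light chain was not measured. Between genes, levels were compared as RPKM, computed here from the counts, the library total and the gene length of the table: Igkc had a median of 9694 RPKM, Igha of 1601 RPKM and Jchain of 475 RPKM. In 17 of 17 libraries the order in RPKM was Igkc, then Igha, then Jchain, then every other member. That of Igkc and Igha depends on the table's lengths of 323 and 2668 bases. In counts Igha was above Igkc in every library, at an Igkc to Igha ratio of 0.632 to 0.752. After Jchain, Ighg2c (median 42.9 RPKM), Iglc2 (42.2 RPKM), Ighm (20 RPKM) and Ighg2b (19.2 RPKM) came next. Ighg1 stood at 5.26 RPKM and Ighg3 at 1.01 RPKM. The order among these was not fixed: Ighg2c exceeded Iglc2 in 8 of 17 libraries and Ighm in 10, and Ighm exceeded Ighg2b in 13, so these neighbours overlapped over the libraries. In RPKM, Ighg2c exceeded Ighg2b in all 17 libraries, an order that depends on the table's lengths of 1326 and 2678 bases. Their secreted transcripts have 1111 and 1114 bases. In counts, Ighg2b was above Ighg2c in R63494_1 (344 and 331), R63496_3 (1264 and 1258) and R63500_2 (203 and 139).

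**Figure D1:**
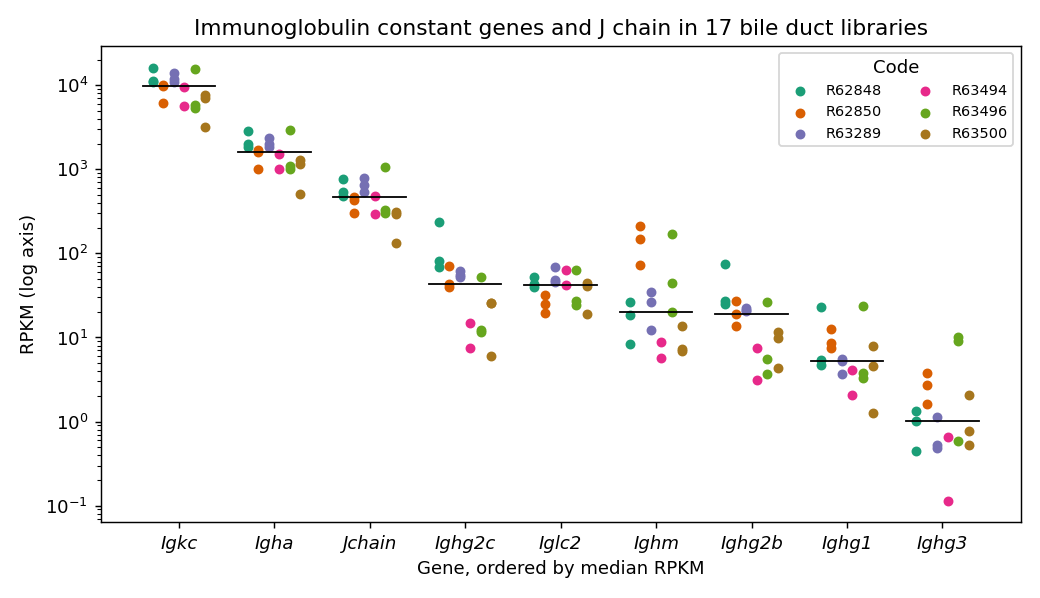
RPKM computed from the counts (log axis) of the 9 members found in the table, 1 point per library, colours for the 6 codes and a black line at the median of 17 libraries. Igkc, Igha and Jchain stand above all other members in every library, and Ighm has its highest points in R62850 and in 1 library of R63496.

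The 9 members together took 0.268% of all counts in the library with least, R63500_2, a median of 0.879%, and 1.54% in the library with most, R63496_3. R62848_1 followed at 1.49% and the library next to lowest, R63494_2, at 0.513%, so R63500_2 lay well below the other 16. R63500_2 also had the highest sums of cholangiocyte genes (7441 CPM) and fibroblast genes (11094 CPM). Its sums of T cell genes (17.2 CPM, median 30.5 CPM) and neutrophil genes (252 CPM, median 883 CPM) were the lowest. Its macrophage sum of 1004 CPM stood above the median of 899 CPM. For plasma cells, the sum of 6 marker genes, Sdc1 among them, was highest there (509 CPM, median 402 CPM). That of the longer list of 12 plasma cell genes was lowest there (1521 CPM, median 1643 CPM). Its heat shock sum of 1255 CPM stood above the 348 and 485 CPM of its code. The part of these genes and cells in the low immunoglobulin share of R63500_2 was not tested. The 2 neighbours of R63496_3 in its code took 0.552% and 0.514%, so libraries of the same code could differ widely. In tissue RNA, fewer cells of a type and less RNA per cell cannot be told apart.

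Among heavy chains, Igha, the gene of the IgA heavy chain, took 87.0% of the counts of the 6 class genes in R62850_3, a median of 96.2%, and 98.7% in R63494_2. Only R62850_3 and R62850_2 (87.8%) lay below 92%. The 95% Wilson intervals were narrow, from 86.7% to 87.2% in R62850_3, and cover only the error of counting, since reads that carry no molecular identifiers can be copies of 1 molecule. The share differed between codes (permutation test of the F ratio, adjusted p = 0.0188 over 6 quantities), but not without the R62850 libraries (permutation test, adjusted p = 0.0968). In RPKM instead of counts, Igha took 82.3% of the heavy chain sum in R62850_3, a median of 94.5%, and 98.2% in R63494_2.

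As a level, Igha ranged from 1343 CPM in R63500_2 over a median of 4256 CPM to 7660 CPM in R63496_3, a 5.70-fold range, with R62848_1 at 7599 CPM. Its level did not pass the test between codes (edgeR quasi-likelihood F test, adjusted p = 0.260), and libraries of R63496 and R63500 spread widely: 2663, 2856 and 7660 CPM in R63496 and 1343, 3057 and 3384 CPM in R63500. Codes R62848 and R63289 lay at 4897 to 7599 CPM and 4733 to 6210 CPM, R62850 at 3186 to 4582 CPM, and R63494 at 2819 and 4113 CPM.

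Ighm, the gene of the IgM heavy chain, was uneven over the libraries. It had 11.2 CPM in R63494_2, a median of 36.8 CPM and 400 CPM in R62850_2, a 35.6-fold range. R62850_3 at 329 CPM, R63496_3 at 312 CPM and R62850_1 at 138 CPM followed, and the other 13 libraries reached at most 81.6 CPM. As a share of heavy chain counts, Ighm took 2.84%, 8.24% and 8.99% in R62850, 1.26%, 2.92% and 3.81% in R63496 and 0.285% to 1.19% in the other codes. The lowest share of R63496 thus stood above every library outside R62850 and R63496. Both the share (permutation test, adjusted p = 0.0176, and 0.0225 without R62850) and the level (edgeR quasi-likelihood F test, adjusted p = 0.00373) differed between codes, and the level did so without R62850 too (adjusted p = 0.0340). In RPKM, Igha exceeded Ighm 6.84-fold in R62850_3, 70.0-fold in the median library and 239-fold in R62848_2. These ratios depend on the table's lengths, 2668 bases for Igha and 1886 for Ighm. Counted per base of the secreted transcripts (1100 and 1493 bases), Igha took 89.1% and Ighm 6.79% of heavy chains in R62850_3.

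Ighd, which naive B cells make together with Ighm, was not on the list of members but belongs to the same locus. It had no counts in R63494_1, which allows up to 0.00429% of heavy chain counts, a median of 1.0 CPM, and 15.2 and 29.4 CPM in R62850_2 and R62850_3. Its highest level elsewhere was 8.70 CPM in R63496_3, so the 3 libraries with most Ighd were those with most Ighm. The level differed between codes (edgeR, adjusted p = 0.00138, and 0.00876 without R62850). Within codes, log2 levels of Ighm and Ighd correlated at r = 0.586 (rho = 0.499, exact permutation test, adjusted p = 0.0696 and 0.114), which did not pass. Over the 6 code means r was 0.950 (rho = 0.943, exact permutation test, adjusted p = 0.0119 and 0.0309), but 0.674 without R62850 and R63496. Ighe, the gene of the IgE heavy chain, had no counts in 2 libraries and at most 1.02 CPM in any (edgeR, adjusted p = 0.703).

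The 4 IgG genes together took 0.865% of heavy chain counts in R63494_2, a median of 2.56% and 6.99% in R62848_1, with R62850_3 next at 4.04%. Within IgG, Ighg2c and Ighg2b led: Ighg2c took 33.1% to 56.7% of the IgG counts (median 44.0%), Ighg2b 27.4% to 49.5% (median 36.1%), Ighg1 6.88% to 28.5% (median 14.9%) and Ighg3 0.254% to 19.6% (median 1.37%). The IgG share differed between codes (permutation test, adjusted p = 0.0176, and 0.0154 without R62850), but not when either R63494 library was left out (adjusted p = 0.0685 without R63494_1 and 0.0792 without R63494_2).

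Ighg2c, a subclass gene whose product engages activating Fc receptors, had 7.73 CPM in R63500_2, a median of 63.0 CPM and 313 CPM in R62848_1. R62848_3 followed at 105 CPM, and both R63494 libraries (10.2 and 19.8 CPM), R63496_1, R63496_2 and R63500_2 lay below 20 CPM. It differed between codes (edgeR, adjusted p = 0.0219, and 0.0338 without R62850), a call that was lost without R62848_1 (0.0637) or R63494_2 (0.0557). Ighg2b ranged from 8.77 CPM in R63494_2 to 199.6 CPM in R62848_1 with a median of 51.8 CPM (edgeR, adjusted p = 0.0609), and passed without R63496_1 (0.0463) or R63496_3 (0.00522). The 3 R63289 libraries were close for both genes, at 53.6 to 57.9 CPM for Ighg2b and 68.1 to 79.2 CPM for Ighg2c.

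Ighg1 had a median of 13.3 CPM and stood out in 2 libraries, at 59.6 CPM in R63496_3 and 59.4 CPM in R62848_1, with R62850_3 at 38.1 CPM and all others between 3.22 and 22.0 CPM. It did not pass the test between codes (edgeR, adjusted p = 0.453). Ighg3, the least abundant IgG gene, rested on few reads: 3 counts in R63494_2, a median of 18 and 197 in R63496_3. It stood at 9.50 and 10.8 CPM in R63496_2 and R63496_3 but at 0.612 CPM in R63496_1 of the same code, and at 4.08 CPM at most elsewhere (edgeR, adjusted p = 0.0114, and 0.0176 without R62850). In R63496_2 it made up 19.6% of the IgG counts, against 5.18% in the next library, R63496_3.

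**Figure D2:**
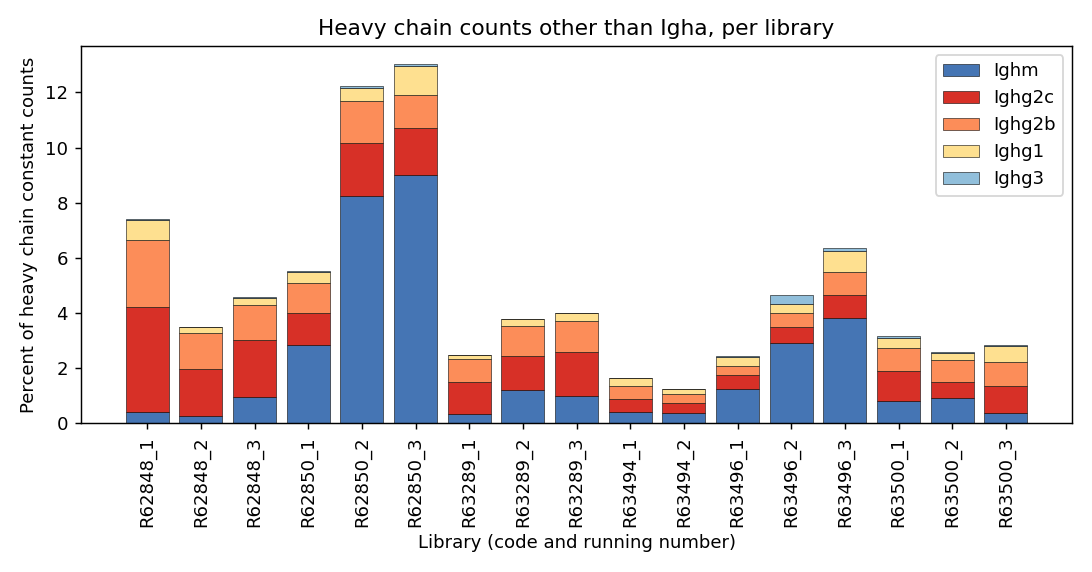
Percent of heavy chain constant counts from Ighm, Ighg2c, Ighg2b, Ighg1 and Ighg3, stacked per library; the rest of each library up to 100 percent is Igha. The tallest bars are R62850_3 and R62850_2, mostly Ighm, whereas the bar of R62848_1 is mostly Ighg2c and Ighg2b.

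Of the 9 members tested, 3 differed between codes at an adjusted p below 0.05 (Ighm, Ighg2c and Ighg3), against a background of 42.2% of all 19412 genes tested. The members' share of calls, 3 of 9, was thus no higher than the background. Igha, Igkc, Iglc2 and Jchain had adjusted p-values of 0.217 to 0.319 (edgeR quasi-likelihood F test). One library weighed on this count: without R63496_3, 8 of 9 members passed, among them Igha (0.0478), Igkc (0.0483), Jchain (0.0278) and Iglc2 (0.0180), beside 42.4% of all genes. Without the R62850 libraries the count was again 3 of 9, beside 36.2% of all genes.

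Light chain RNA followed heavy chain RNA closely. Igkc, the kappa constant gene, ranged from 1006 CPM in R63500_2 over a median of 3120 CPM to 5220 CPM in R62848_1. The ratio of light to heavy chain constant counts lay between 0.608 and 0.749 in all 17 libraries, with a median of 0.674. This 1.23-fold range was far below the 5.70-fold range of Igha itself. The ratio still differed between codes (permutation test, adjusted p = 0.00531, and 0.0101 without R62850), at 0.608 to 0.638 in R63496 and 0.704 to 0.738 in R63500. Within codes, log2 levels of Igha and Igkc correlated at r = 0.997 (rho = 0.997, exact permutation test within codes, adjusted p = 0.000386 for each, 12 relations computed), and at r = 0.993 without the 2 libraries farthest from the median. In RPKM, Igkc exceeded Igha 5.22- to 6.21-fold, a ratio that depends on the lengths. With Igha counted over its secreted transcript of 1100 bases instead of the table's 2668, it was 2.15- to 2.56-fold. There Igkc was still counted over the table's 323 bases. Its transcript has 532 bases, which would lower the ratio further.

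The Iglc2 share of light chain counts differed between codes, with the smallest p of the 6 quantities tested. Iglc2, a lambda constant gene, had 11.4 CPM in R63500_2, a median of 25.7 CPM and 40.3 CPM in R63289_1, and made up 0.471% to 1.39% of light chain counts (median 0.773%). By code the shares were 1.26% and 1.39% in R63494, 1.05% to 1.12% in R63500, 0.743% to 0.868% in R63496, 0.766% to 0.904% in R63289, 0.602% to 0.739% in R62848 and 0.471% to 0.614% in R62850. By Iglc2, the R63494 and R63500 libraries all lay above the other 12. The permutation test between codes gave p = 1e-05, the smallest that 100000 permutations can give, and an adjusted p of 6e-05 (0.00018 without R62850). These shares cover 1 lambda gene, since Iglc1, Iglc3 and Iglc4 had no rows. Counted over variable gene segments instead, lambda made up 4.88% to 9.41% of light chain counts (median 7.60%), and the order of the codes was another one. Segment shares were 8.17% to 9.41% in R63500, 8.05% and 8.37% in R63494, 6.79% to 8.59% in R63496, 7.60% to 7.99% in R62848, 6.71% to 6.84% in R63289 and 4.88% to 6.0% in R62850, so R63496_1 at 8.59% stood above both R63494 libraries. In a test added after seeing the data, they differed between codes as well (permutation test, adjusted p = 0.00036, and 0.0225 without R62850). The lambda segment Iglv1 alone had 2.29 to 6.0 times the counts of Iglc2, from 2.29 and 2.38 in R63494 to 4.21 to 6.0 in R62848. These counts do not show which lambda constant gene the Iglv1 transcripts carried. The ratio thus need not set a segment against its own constant gene. The share by Iglc2 was lower than the share by segments in every library.

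Jchain, the joining chain of IgA dimers and IgM, had 235 CPM in R63500_2, a median of 865 CPM and 1901 CPM in R63496_3. Its ratio to Igha counts stayed between 0.163 in R63500_3 and 0.248 in R63496_3, with a median of 0.198 and a 1.52-fold range. R63289 (0.200 to 0.226) lay above R63500 (0.163 to 0.175), and the ratio differed between codes (permutation test, adjusted p = 0.0176, and 0.0225 without R62850). Within codes, log2 levels of Jchain and Igha correlated at r = 0.988 (rho = 0.988, exact permutation test, adjusted p = 0.000386 for each), and at r = 0.983 without the 2 farthest libraries. Over the 6 code means r was 0.969 (rho = 0.886, exact permutation test, adjusted p = 0.0119 and 0.0464).

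**Figure D3:**
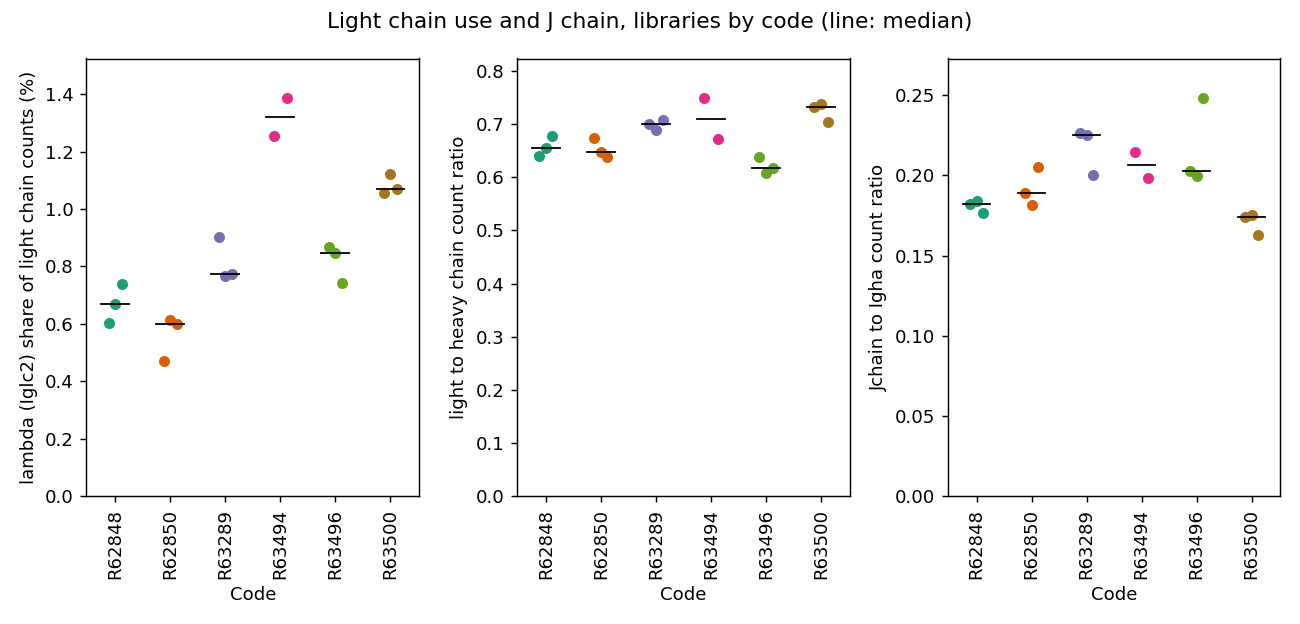
Lambda share of light chain counts in percent, light to heavy chain count ratio and Jchain to Igha count ratio, 1 point per library by code, with a line at the median of the code. The share of Iglc2, the lambda gene counted here, is highest in R63494 and R63500, whereas the light to heavy ratio stays between 0.608 and 0.749 throughout.

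The receptor that moves IgA across epithelium was abundant in every library, and no relation of its level to that of Igha was detected within codes. Pigr, the polymeric immunoglobulin receptor, had 4557 CPM in R63500_2, a median of 6300 CPM and 10988 CPM in R63494_1. The other R63494 library followed at 10114 CPM, and Igha in these 2 libraries lay below its median over all libraries. Pigr reached 3.59 times Igha in R63494_2 and 0.683 times in R62848_1, and within codes the 2 genes correlated at r = 0.117 (rho = 0.0399, exact permutation test, unadjusted p = 0.743 and 0.910). A p of this size does not show that they are unrelated. Pigr differed between codes (edgeR, adjusted p = 3.81e-06) and was called without R62850 too. The R63494 libraries, highest in Pigr, were also those with the highest heat shock and lowest fibroblast sums, whose part was not tested.

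Of the 10 genes listed for IgA transport and antibody Fc binding, 9 differed between codes, against 42.2% of all genes, and 7 without R62850, against 36.2%. Fcgrt, the neonatal Fc receptor that recycles IgG, had 52.0 CPM in R63494_1, its lowest, and 95.2 CPM in R63496_3, its highest (edgeR, adjusted p = 0.00084). Fcgr3, a low-affinity IgG receptor of myeloid cells, ranged up to 76.8 CPM in R62848_3, with its lowest level, 34.1 CPM, in R63494_2 (adjusted p = 0.00836). Fcer1g, the signalling chain that the Fcgr3 receptor uses, had 32.7 to 66 CPM (edgeR, adjusted p = 0.0216, a call lost without R62850). Trim21, a cytosolic antibody receptor, did not pass (adjusted p = 0.252).

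Of 12 plasma cell genes, 7 differed between codes by edgeR, against 42.2% of all genes, and 6 without R62850, against 36.2%. The count was 4 without R62848_3 and 9 without R63496_2, R63496_3 or R63500_1. The genes of this list differed in how closely they followed the constant genes. Over the 17 libraries, as a description of libraries that share codes, r with the summed log2 level was 0.89 for Mzb1, an endoplasmic reticulum chaperone cofactor of antibody assembly, 0.87 for the survival receptor gene Tnfrsf17 and 0.85 for the coactivator gene Pou2af1. It was 0.60 for Xbp1, the driver of the secretory programme, 0.54 for Txndc5, a disulfide isomerase, 0.04 for Creld2, a stress-induced chaperone, and -0.62 for Sdc1, a plasma cell surface proteoglycan that epithelium also makes. Mzb1 itself ranged from 7.23 CPM in R63500_2 to 34.5 CPM in R62848_1 (median 17.5 CPM). Within codes, Mzb1 and Igha correlated at r = 0.835 (rho = 0.742, exact permutation test, adjusted p = 0.0369 and 0.0464), but at r = 0.651 without R63496_3 and R63500_2, so the relation rests in part on these 2 libraries.

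**Figure D4:**
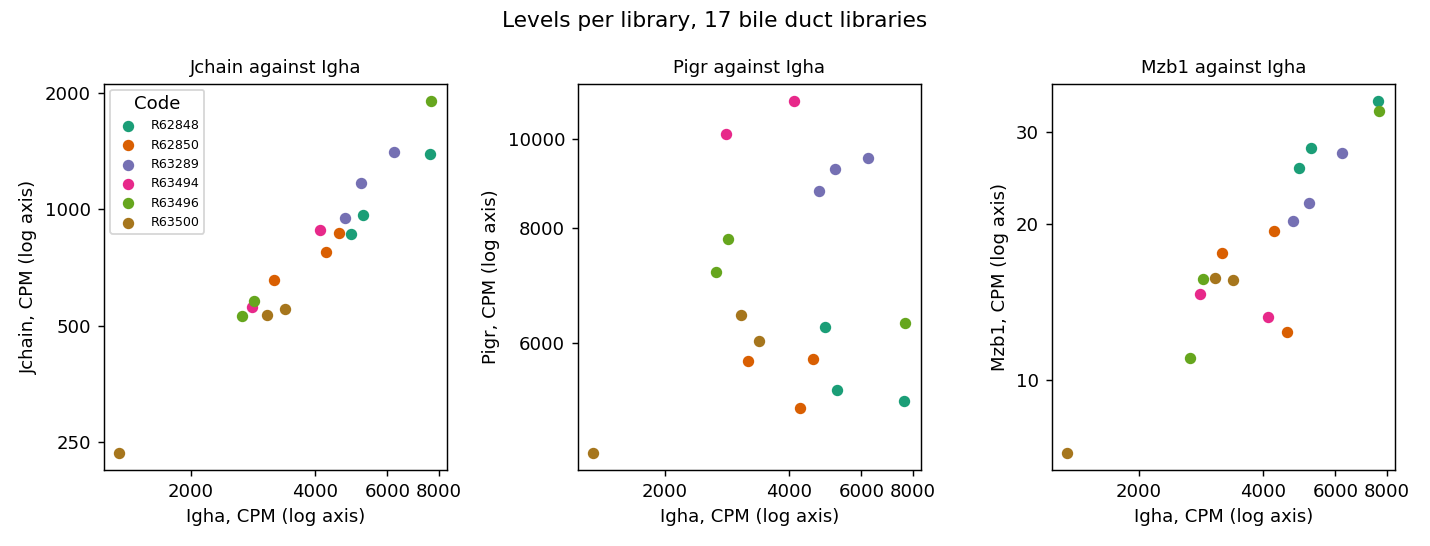
Levels per library in CPM, both axes logarithmic, for Jchain, Pigr and Mzb1 against Igha, coloured by code. Jchain lies along a line with Igha (r = 0.988 within codes), Mzb1 follows it more loosely (r = 0.835), and for Pigr no relation was detected (r = 0.117).

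Genes of B cells that have not become plasma cells were mostly highest where Ighm was highest. Of 10 such genes, the summed level was 134.7 CPM in R62850_3, 129.9 CPM in R62850_2 and 75.0 CPM in R63496_3, with a median of 31.4 CPM and 17.1 CPM in R63500_2. The 3 libraries with most Ighm were also the 3 highest for 7 of 10 of these genes. The same share over all genes is not reported here, so this overlap is a description only. Cd79a and Cd79b, the signalling chains of the B cell receptor, peaked in R62850_2 at 25.6 and 17.5 CPM, over medians of 10.7 and 6.56 CPM, and Cd22, an inhibitory receptor, in R62850_3 at 19.5 CPM over a median of 6.15 CPM. Pax5, a B cell transcription factor, and Cr2, a complement receptor gene, had R62850_1 in place of R63496_3 among their 3 highest. Blk, a kinase that other lymphocytes make as well, had 2 other libraries there (4.17 to 10.3 CPM, edgeR adjusted p = 0.819).

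Of these 10 B cell genes 9 differed between codes, against 42.2% of all genes, but without R62850 only Cd79b and Pax5 did, against 36.2% of all genes.

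Markers of other tissues and cells were high in some of the same libraries. All 11 acinar genes were highest in the R62850 libraries, at summed levels of 6048 CPM (R62850_1), 23953 CPM (R62850_2) and 136970 CPM (R62850_3), but summed to 98.6 CPM in R63496_3. All 11 acinar genes had at least 2 of the 3 libraries with most Ighm among their own 3 highest. So did 5 of 6 lymph node and follicle genes and 2 of 12 plasma cell genes. The same share over all genes is not reported here, so the overlap is not particular to lymphoid genes. The 6 lymph node and follicle genes include Glycam1 of lymph node vessels, Cxcl13 of follicles, and Cr2 and Fcer2a, which are on the B cell list too. Their summed level was 154 CPM in R62850_2 and 151 CPM in R63496_3, but R62850_3 at 125 CPM came after R62848_1 (146.5 CPM), R62850_1 (138.5 CPM), R63289_3 (129.3 CPM) and R63289_1 (128.3 CPM), over a median of 109.7 CPM and 40.3 CPM in R63500_2. The summed level of 6 T cell genes was highest in the 3 libraries with most Ighm, at 41.7 CPM in R62850_3, 39.9 CPM in R63496_3 and 37.6 CPM in R62850_2, with a median of 30.5 CPM, although none of the 6 genes by itself had those 3 libraries highest. The part of these tissues and cells in the Ighm levels was not tested.

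Of 6 germinal centre and switching genes, Bcl6 and S1pr2 differed between codes, against 42.2% of all genes (edgeR, adjusted p = 0.00534 and 2.78e-05), and Fas (17.2 to 26.2 CPM) and Ung (3.57 to 6.62 CPM) did not. The count was again 2 without R62850, against 36.2%, 3 without R63494_1 or R63500_1, and 4 without R63494_2. Of 6 genes of early B cell development, Igll1, Rag1, Rag2 and Dntt had no counts in 12 to 16 of the libraries. Vpreb3 had a median of 1.34 CPM and Vpreb1 of 0.223 CPM, and neither differed between codes (edgeR, adjusted p = 0.262 and 0.997).

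Among 12 genes of plasma cell homing, 7 differed between codes, against 42.2% of all genes, and 4 of 11 tested without R62850, against 36.2%. Ccl28, the mucosal chemokine that attracts IgA plasma cells, was made at 137 to 264 CPM (edgeR, adjusted p = 0.000508), whereas its receptor gene Ccr10 had a median of 2.44 CPM (adjusted p = 0.824). Vcam1, an adhesion ligand, lay at 190 to 331 CPM and Itgb1, an integrin chain, at 365 to 604 CPM (adjusted p = 0.000222 and 4.66e-05), and the Vcam1 call was lost without R62850. Cxcr4, the receptor by which plasma cells settle, ranged from 26.7 CPM in R63500_2 to 67.2 CPM in R62848_3 (adjusted p = 0.0231) and had r = 0.82 with the summed constant genes over 17 libraries. Of 11 tested survival and switch factor genes 6 differed between codes, against 42.2% of all genes, and 4 of 10 tested without R62850, against 36.2%. The count was 4 of 13 without R63494_2 and 4 of 11 without R63500_1. Tnfsf13 and Tnfsf13b, the genes of the plasma cell survival factors APRIL and BAFF, had medians of 50.4 and 9.66 CPM and did not pass (edgeR, adjusted p = 0.0898 and 0.119). Aldh1a1, a retinoic acid synthesis enzyme (32.8 to 96.5 CPM), and Tgfb1, an IgA switch cytokine (45.1 to 70.9 CPM), did (adjusted p = 0.000868 and 0.0355), and both calls were lost without R62850, where Tnfsf13 passed.

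The 10 genes whose log2 level was most like the summed constant genes, among 15838 genes with a median of at least 1 CPM outside the immunoglobulin loci, had r of 0.82 to 0.91 over the 17 libraries. They were Gm5141, Mzb1, Trp53inp1, Tnfrsf17, Pou2af1, Lyve1, Snx20, Cacna1h, Lax1 and Cxcr4. Mzb1, Tnfrsf17, Pou2af1 and Cxcr4 were on the lists above, whereas Lyve1 is a gene of lymphatic vessels and some macrophages. With deviations from the code means in place of the levels, 3 of these 10 (Gm5141, Cacna1h and Lax1) were again among the 10 closest. The closest gene by these deviations was Irf4 of the plasma cell list (r = 0.93, against 0.58 over the 17 libraries). Mzb1, Pou2af1 and Tnfrsf17 had r of 0.84, 0.83 and 0.82 by the deviations, outside the 10 closest.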

How the data were processed

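Total RNA of 17 mouse bile duct samples was sequenced. The authors deposited whole, not normalized read counts per gene with gene lengths; 17 further value columns in another unit were not used here, so that each sample has 1 column. Tools listed in the submitters' processing notes are STAR 2.6.1c, featureCounts and edgeR 3.40.2, for the build mm10, with no roles given. Annotation release and strand setting are not given in the sources used. No column name matches a sample title, so columns were tied to the single group, bile duct, and libraries are named by column.

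CPM are counts over whole library totals scaled by TMM factors, log2 CPM with a prior count of 2. RPKM are counts over the same totals without TMM factors and over the table's gene length. Differences between codes used edgeR 4.0.16 in R 4.3.3 (filterByExpr, quasi-likelihood F test, Benjamini-Hochberg adjustment over 19412 genes, threshold 0.05). A variation of 17.5% between libraries of a code was estimated. On simulated data with 67, 67 and 66 of 19412 genes changed 1.5-, 2- and 4-fold in 1 code, the test recovered 41.8%, 53.7% and 83.3%. It made 8 false calls. Far fewer genes were changed there than the 42.2% called in the data, so these rates need not hold for the data. Shares and ratios were tested with 100000 permutations. The summed share was not tested, because it is a score over the members. Correlated pairs were chosen after their values had been seen, and within codes all 15552 orders were enumerated. Named are all members, Ighd and Ighe, in each list the 4 genes with the highest median RPKM, and the 10 genes most like the summed level. Other named genes (Mzb1, Tnfrsf17, Pou2af1, Irf4, Pax5, Trim21, Ccr10, the acinar, follicle and early B cell genes) were chosen after their values were seen. Members and lists were chosen with earlier results of these data known. Some results on single genes are not reported here. Alternatives included other scaling, filters, priors, denominators and lengths, DESeq2 1.42.0 and leaving out libraries.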

Additional observations from a re-analysis of the deposited data

How the results depend on the processing

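Calls between codes numbered 8194 of 19412 genes, against 8214 with DESeq2 size factors, 8543 of 29354 without the filter, 9529 with the DESeq2 likelihood ratio test, 6895 without R62850 and 7188 to 8531 with 1 library left out. Of the members' adjusted p-values under alternatives, 180 stayed on their side of 0.05, 7 crossed below and 2 above it, and 36 of 36 median levels moved by less than 1 SD. Leaving out 1 library at a time, adjusted permutation p-values ranged from 0.00264 to 0.0388 for the IgA share, 0.00108 to 0.0369 for IgM, 0.00626 to 0.0792 for IgG, 6e-05 to 0.00012 for lambda, 0.00039 to 0.019 for the light to heavy ratio and 0.00747 to 0.0419 for Jchain to Igha. The p of the IgG share was above 0.05 without R63494_1 (0.0685) and without R63494_2 (0.0792), with 1 library left in that code, and that of the IgA share was without R62850 (0.0968). In RPKM instead of counts the median Ighg2c share of heavy chains was 2.24% against 1.13% and the Iglc2 share of light chains 0.413% against 0.773%, because the table's gene lengths differ. Of the 10 genes most like the summed level, 3 were shared with the ranking within codes. Counts over the secreted transcript length, chosen after seeing the data, gave a median Igha share of 96.5%. No paired analysis was possible because the labels give a single group and the running numbers of the columns match no sample. Depth limits Ighg3, Ighd and Ighe, with medians of 18, 18 and 5 counts.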

Other observations

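Genes most like Ighm, named after their values had been seen, were H2-Ob (r = 0.95 over 17 libraries, 0.92 within codes), an antigen presentation regulator of B cells, Cd79b (0.92 and 0.81), the B cell receptor-like gene Fcrl1 (0.90 and 0.70) and Ms4a1, a B cell surface gene (0.89 and 0.78). The other 6 of the 10 closest were Clec10a, Ctsa, Rbm38, Nudt4, Aif1 and Siglech, of which Clec10a, Aif1 and Siglech are known from myeloid or dendritic cells. Within codes, 1 of the 10 (H2-Ob) was again among the 10 closest. H2-Ob ranged from 1.46 to 14.3 CPM. Variable segments were counted in a narrow proportion to the constant genes. Heavy chain segments summed to 0.156 to 0.229 of the heavy chain constant counts, and kappa segments to 0.427 to 0.582 of Igkc counts. The Ighd to Ighm count ratio had a median of 0.0279 and was highest in R62848_2 (0.114) and R62850_3 (0.0892).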
